A study of Mus musculus with 18 samples.

Results

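Genes of striated muscle, skeletal and cardiac, were followed in the transcriptomes of mouse skin and lung to read which muscle each piece of tissue carried. The 38 genes were taken by their gene symbols, and all 38 were present among the 55401 genes listed for each tissue. They fall into 5 lists: 12 fast skeletal genes, 9 genes of slow skeletal fibres that are for the most part shared with the heart, 9 cardiac genes, 3 genes of any skeletal fibre and 5 genes of both striated muscles. Skin and lung RNA of wild-type females was sequenced in bulk, in 3 groups with 3 libraries of each tissue, 18 in all. Control mice were untreated. AD mice, a model of atopic dermatitis, received calcipotriol at 4 nmol, a drug of the vitamin D type also called MC903, together with 50 µg of the egg allergen ovalbumin up to day 28, and La-Cer mice were given both agents with an emollient that contains linoleic acid and ceramide. Mouse age and strain, the body site of the skin, and whether muscle, large vessels or heart tissue were trimmed away is left unstated by the labels.

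Striated muscle contracts when myosin heavy chains, each with an essential and a regulatory light chain, pull on thin filaments of actin, and troponin and tropomyosin open the filament when calcium rises. Most of these proteins have isoforms from separate genes, so the isoforms present help to name the muscle. Slow skeletal fibres share most of theirs with the heart, and those genes alone do not tell slow fibres from heart. Mouse skin rests on a thin sheet of skeletal muscle, the panniculus carnosus, and in mice cardiac muscle of atrial type extends from the heart along the pulmonary veins into the lung.

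Libraries held 13472283 to 19338972 counts. FPKM, counts scaled by exonic size and by the total of the library, are the levels given for single libraries below, and log2 changes, with their standard errors (SE), come from edgeR's quasi-likelihood test on the counts with p-values adjusted over all genes tested by the Benjamini-Hochberg method. A gene is called when its adjusted p is under 0.05. In skin 32 of the 38 genes passed the filter on low counts, among 16956 genes tested; Myl3, Pln, Myh6, Myl7, Ryr2 and Nppa did not. In lung 36 passed among 17272, without Myl2 and Tnni1. The libraries also differed by transcript length: the top class of 5 by exonic size exceeded the bottom class by 0.75, 0.24 and 0.64 log2 units in control skin, by -0.96, -0.25 and -0.70 in AD skin and by -0.28, 0.43 and -0.02 in La-Cer skin, and in lung by -1.17, 0.25 and 0.23, by 0.70, 0.41 and 0.33 and by -0.44, -0.13 and -0.32. Lung replicates 1 and 3 of La-Cer were the most alike pair of one group, with a mean chi-square of 5.91 per gene against 22.4 to 276 for the other pairs. They were kept apart because the labels give them as separate replicates; the files do not show whether they come from separate mice. Lung replicate 1 of AD stood apart by its near lack of heart muscle transcripts, as described below. In bulk RNA, fewer muscle cells and less RNA per muscle cell cannot be told apart.

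Skin carried fast skeletal muscle and lung carried heart muscle of atrial type. In control skin the 12 fast genes summed to 5706, 6189 and 19087 FPKM in replicates 1 to 3, against 56.2, 14.2 and 21.8 FPKM in control lung. The 9 cardiac genes showed the opposite, with 19.7, 12.7 and 41.1 FPKM in control skin and 2243, 866 and 1342 FPKM in control lung. Over all 9 libraries of a tissue, the 38 genes took 0.488 to 7.48% of the counts in skin and 0.0618 to 0.6% in lung. Between control skin and control lung, 33 of the 38 genes were called, 19 higher and 14 lower in skin; 42.8% of all 19129 genes tested were called, 18.5% higher and 24.3% lower. All 12 fast genes were higher in skin, with a median log2 difference of 9.15 and a range of 4.97 (Myl1) to 12.15 (Myh4), beside a median of -0.02 over all genes. The 3 genes of any skeletal fibre were higher in skin as well, by 8.78 for Acta1, 9.62 for Neb and 8.53 for Ryr1. Of the 9 cardiac genes 8 were lower in skin, from -4.90 for Tnnt2 to -12.31 for Myl7, while Sln was not called (-2.11 ± 0.92 SE, adjusted p = 0.0738).

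Among the 9 slow and shared genes only Tnni1, the slow skeletal inhibitory troponin, was called higher in skin (4.02 ± 1.02 SE, adjusted p = 0.00417). Lower in skin were Myh7 (-9.92), Tnnc1 (-8.65), Myl3 (-7.75), Pln (-6.31), Casq2 (-2.25) and Atp2a2 (-1.55), which the heart shares, and Tnnt1 and Myl2 were not called (1.43 and -1.92, adjusted p = 0.128 and 0.14). Casq2 lost its call without skin control replicate 1 or 2 or without lung control replicate 1 (adjusted p = 0.0598, 0.076 and 0.0827). The genes of both muscles split: Ckm (5.22), Ttn (4.63) and Tpm2 (4.31) were higher in skin, whereas Actn2 (2.12 ± 0.85 SE, adjusted p = 0.0534) and Mb (0.63 ± 1.0 SE, adjusted p = 0.647) were not called. The series text gives 3 mice per group, but by the codes on the columns only 2 control codes and all 3 La-Cer codes recur in both tissues, so skin and lung need not all come from the same mice; the test treats all libraries as independent. With the code as a replicate block, 34 of the 38 genes were called, and 8766 over all genes, against 33 and 8184 without it. That setting reads the difference only from the 2 control codes that recur in both tissues.

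**Figure D1:**
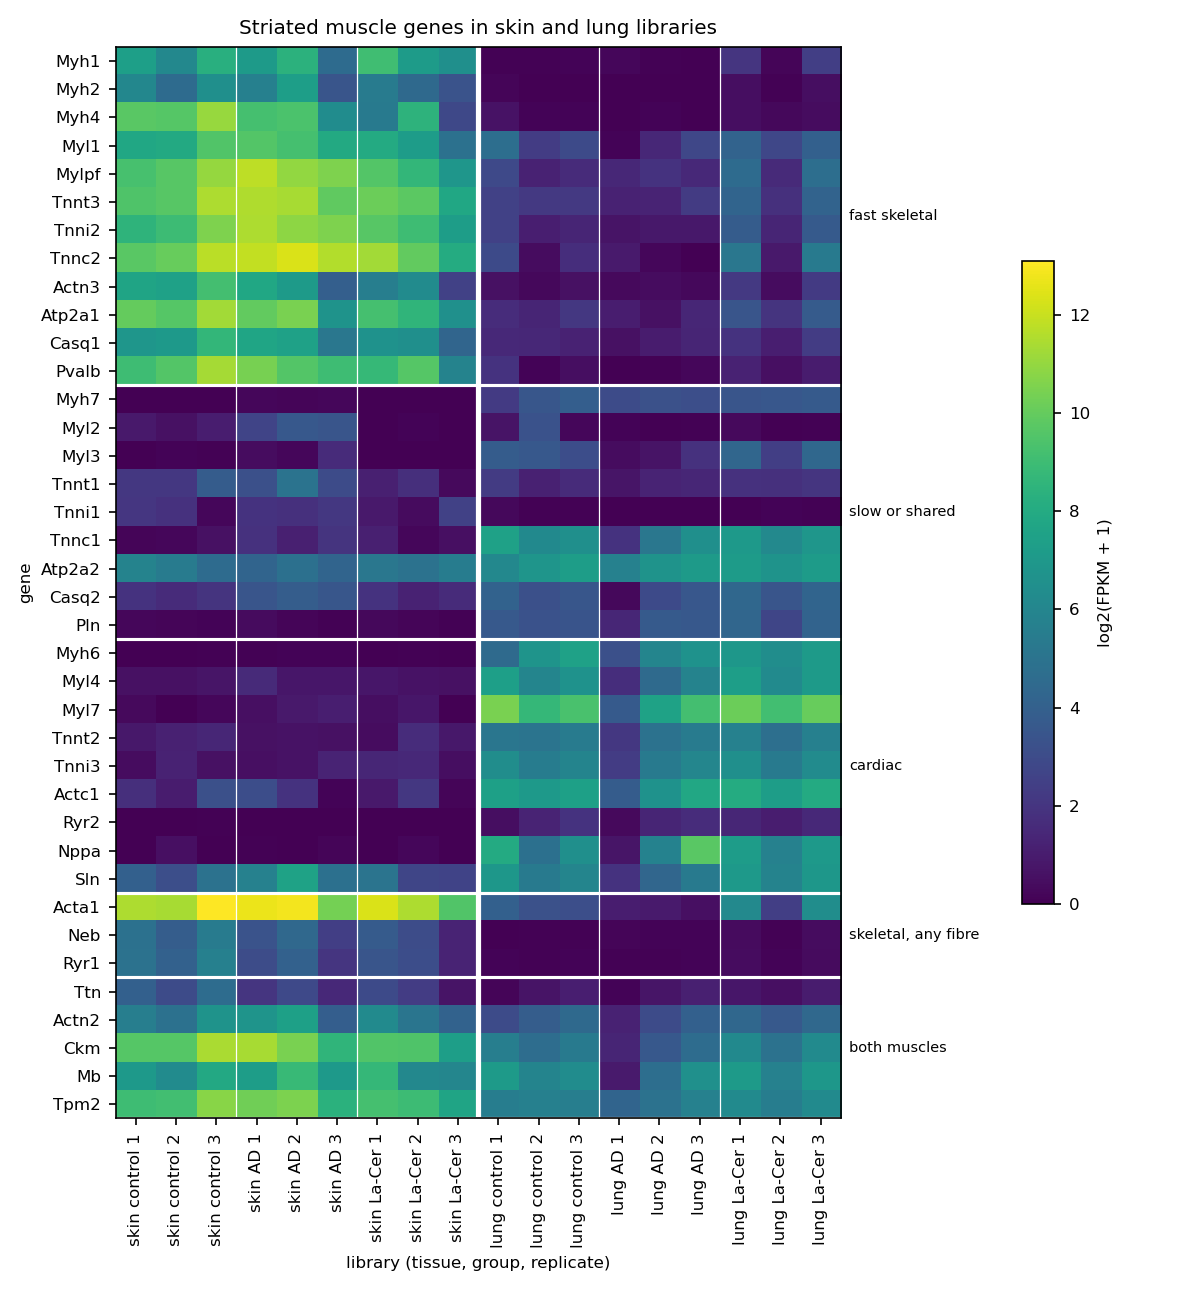
FPKM of the 38 genes on a log2(FPKM + 1) colour scale, one column per library (tissue, group, replicate) and one row per gene, with white lines between groups, tissues and lists. Fast skeletal genes and Acta1 are bright in the 9 skin libraries, cardiac genes are bright in the lung libraries except AD replicate 1, and lung La-Cer replicates 1 and 3 show faint colour for fast genes.

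The skeletal and the cardiac actin gene share a promoter feature that is known to bind serum response factor, the CArG box, and their promoters are shown because these genes mark the muscle of skin and of lung. RefSeq promoter windows of the GRCm38.p6 build were found for 32 of the 38 genes. A window of 250 bases before a start held a CArG box, on either strand, in 5 of the 32 genes (15.6%), against 1.62% of the 27025 genes of the table, counted in the same way; a match is only a run of letters. A MEF2 site, named for the muscle transcription factor family, was found in 5 of the 32 (Casq2, Myh1, Myh4, Pvalb and Ttn), against 3.42% of all genes. The motif CANNTG, which reads the same on both strands and is bound by Myod1 and its relatives, was found in 27 (84.4%), against 69.3%. Each line gives 250 bases read 5′ to 3′ on the strand of the gene, ending just before the RefSeq start, with the CArG box in capitals.
Acta1: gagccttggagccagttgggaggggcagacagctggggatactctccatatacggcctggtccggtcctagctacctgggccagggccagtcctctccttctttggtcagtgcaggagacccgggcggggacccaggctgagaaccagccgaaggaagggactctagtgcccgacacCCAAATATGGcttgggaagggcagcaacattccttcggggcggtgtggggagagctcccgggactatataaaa
Myh4: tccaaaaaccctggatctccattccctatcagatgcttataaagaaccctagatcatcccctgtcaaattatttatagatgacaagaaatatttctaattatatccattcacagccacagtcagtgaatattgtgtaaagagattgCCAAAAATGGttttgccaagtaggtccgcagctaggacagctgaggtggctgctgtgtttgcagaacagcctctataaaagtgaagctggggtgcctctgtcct
Actc1: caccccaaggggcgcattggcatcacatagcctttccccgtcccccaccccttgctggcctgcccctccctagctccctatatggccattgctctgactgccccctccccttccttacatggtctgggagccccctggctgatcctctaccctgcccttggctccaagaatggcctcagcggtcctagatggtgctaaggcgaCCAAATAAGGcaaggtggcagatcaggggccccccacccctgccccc
Myl7: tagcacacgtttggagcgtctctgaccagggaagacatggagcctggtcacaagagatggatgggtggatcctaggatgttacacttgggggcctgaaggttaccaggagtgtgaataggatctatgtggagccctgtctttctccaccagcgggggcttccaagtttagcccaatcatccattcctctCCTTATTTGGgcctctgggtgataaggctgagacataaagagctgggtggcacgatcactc
Myl3: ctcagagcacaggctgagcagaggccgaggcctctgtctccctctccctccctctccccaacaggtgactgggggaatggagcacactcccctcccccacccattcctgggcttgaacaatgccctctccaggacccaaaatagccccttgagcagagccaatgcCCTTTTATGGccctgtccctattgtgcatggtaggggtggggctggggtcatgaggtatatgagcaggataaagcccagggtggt

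The windows lie at chr8:123894776-123895025 on the minus strand for Acta1, the actin of skeletal muscle, at chr11:67237562-67237811 on the plus strand for Myh4, the fastest myosin heavy chain (IIb), and at chr2:114052876-114053125 on the minus strand for Actc1, the actin of heart muscle. Those of Myl7, the regulatory light chain of the atria, and Myl3, the essential light chain of slow fibres and ventricles, lie at chr11:5898783-5899032 on the minus strand and at chr9:110763428-110763677 on the plus strand. Counted back from the start, the first base of the CArG box stood at 73 in Acta1, 104 in Myh4, 47 in Actc1, 61 in Myl7 and 85 in Myl3. Acta1 and Myh4 were among the genes of skin, and Actc1, Myl7 and Myl3 were among those of lung, so the letters were present in genes of either muscle.

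In skin, the thick filament was of fast type. Myh4 stood at 863, 788 and 2145 FPKM in controls, at 597, 675 and 80.8 in AD mice and at 40.3, 358 and 6.14 in La-Cer mice. Myh1, the IIx heavy chain, stood at 168, 69.1 and 308 FPKM in controls, at 141, 343 and 23.2 in AD mice and at 530.5, 147 and 92 in La-Cer mice. Myh2, the IIa heavy chain, stood at 65.4, 23.1 and 91 FPKM in controls, at 50.9, 161 and 9.86 in AD mice and at 42, 21.2 and 9.02 in La-Cer mice. By FPKM all AD and La-Cer values of Myh4 lay below the 3 control values, though on TMM-scaled CPM AD replicate 2 lay within the range of the controls, while Myh1 was highest in La-Cer replicate 1. As a share of the 5 adult heavy chain genes, scaled by exonic size, Myh4 made up 78.7, 89.5 and 84.3% in controls, 75.7, 57.3 and 70.8% in AD mice and 6.58, 68 and 5.73% in La-Cer. Myh1 made up 15.4, 7.85 and 12.1%, 17.8, 29.1 and 20.3% and 86.6, 27.9 and 85.8% in the same order. La-Cer replicates 1 and 3 thus held mostly Myh1 and La-Cer replicate 2 mostly Myh4; no test was made on the shares. The ratio of Myh4, a long transcript, to the short fast gene Tnnc2 was 1.02, 0.742 and 0.639 in controls, 0.157, 0.131 and 0.0268 in AD mice and 0.0161, 0.36 and 0.0233 in La-Cer. Myh1 and Myh4 have almost the same exonic size (6353 and 6016 bases), and 25.4% of the 50-base words of Myh1 and 18.9% of those of Myh4 occur in another gene, so reads of the 2 genes could be mixed.

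**Figure D2:**
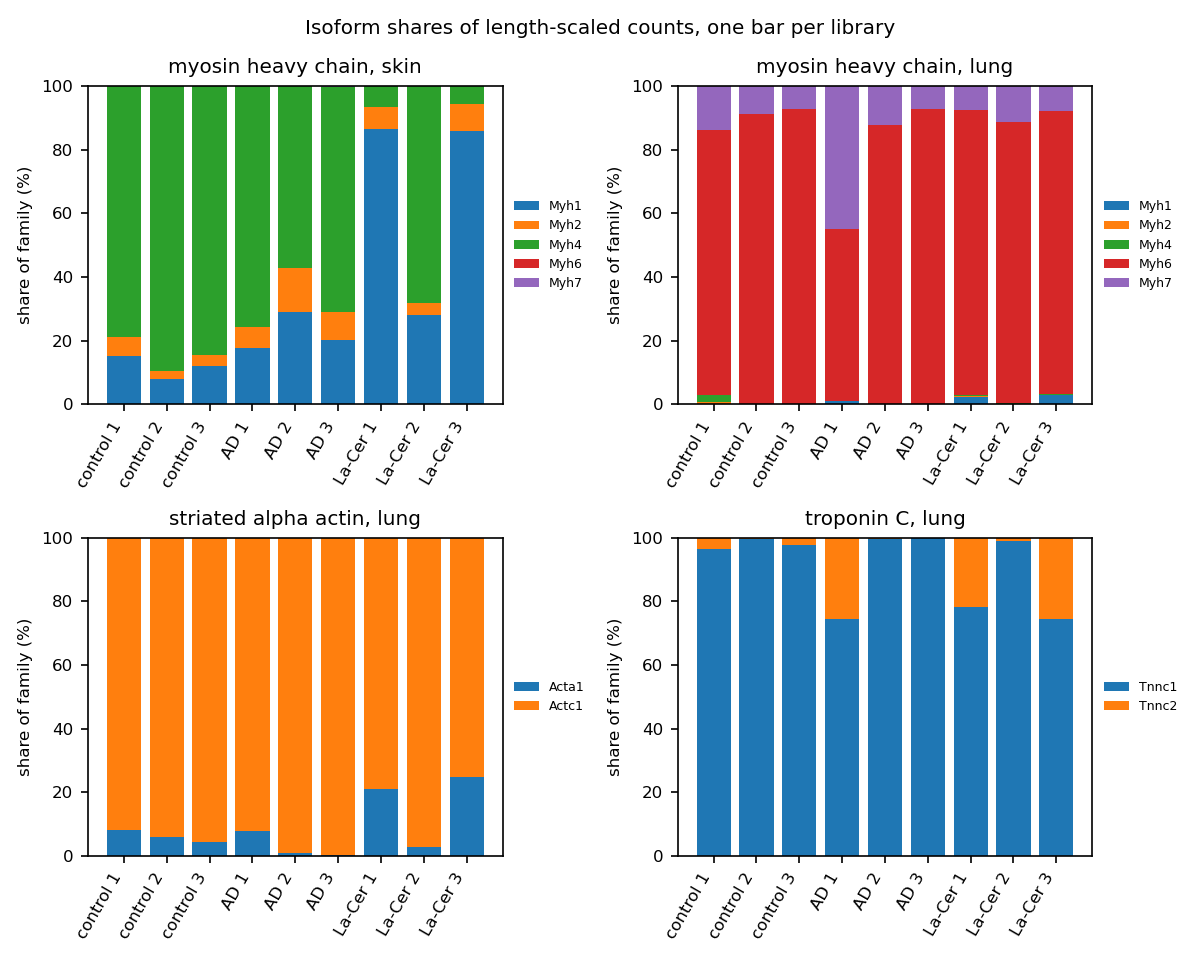
Share of each gene in its isoform family, in percent of counts divided by exonic size, for the myosin heavy chains of skin and lung and for the actins and troponin C genes of lung, one stacked bar per library. Skin libraries are mostly Myh4 except La-Cer replicates 1 and 3, which are mostly Myh1, lung is mostly Myh6, and lung La-Cer replicates 1 and 3 hold 20.9 and 24.9% Acta1 in the actin family.

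The light chains were of fast type too. Mylpf, the fast regulatory light chain, stood at 625, 813 and 2062 FPKM in controls, at 3485, 2024 and 1483 in AD mice and at 757, 412 and 117 in La-Cer mice. Myl1, the fast essential light chain, stood at 218, 242 and 730.2 FPKM in controls, at 766, 599 and 242 in AD mice and at 256, 148 and 28.7 in La-Cer mice. All 3 La-Cer values of Mylpf lay below all 3 AD values, and both genes were lowest in La-Cer replicate 3. The fast troponin genes were abundant. Tnnc2, which binds calcium, stood at 847, 1062 and 3357 FPKM in controls, at 3813, 5137 and 3019 in AD mice and at 2509.97, 993 and 264 in La-Cer mice. Tnnt3, which ties troponin to tropomyosin, stood at 708, 836 and 2873 FPKM in controls, at 2973, 2612 and 934 in AD mice and at 1152, 883 and 220.1 in La-Cer mice. Tnni2, the inhibitory subunit, stood at 363, 498 and 1494 FPKM in controls, at 2904, 1838 and 1504 in AD mice and at 824, 520.4 and 156 in La-Cer mice. For Tnnc2 and Tnni2 the AD and La-Cer groups did not overlap, and for Tnni2 all AD values also lay above all control values. Within their families, these fast isoforms held nearly all of the skin signal. Tnni2 was at least 96.8% of troponin I, Tnnt3 at least 98.8% of troponin T and Tnnc2 at least 99.8% of troponin C in every skin library.

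Thin filament and Z-disc genes were abundant too. Acta1, the gene with the highest level of the 38 in skin, stood at 2805, 2681 and 8715 FPKM in controls, at 6708, 7426 and 1329 in AD mice and at 5192, 2853 and 731 in La-Cer mice. Control replicate 3 and AD replicates 1 and 2 were high and La-Cer replicate 3 was low, and all 3 groups overlapped. Neb, the ruler of the thin filament, stood at 28.7, 13.3 and 42.1 FPKM in controls, at 9.1, 20.5 and 4.41 in AD mice and at 12.4, 7.12 and 1.5 in La-Cer mice. Actn3, the α-actinin of fast fibres, stood at 200.03, 177 and 586 FPKM in controls, at 219, 139.5 and 14.7 in AD mice and at 48, 79.5 and 4.84 in La-Cer mice. Both were highest in control replicate 3 and lowest in La-Cer replicate 3. Actn2, the α-actinin of all striated muscle, stood at 48.2, 28.7 and 103 FPKM in controls, at 108, 171 and 14.2 in AD mice and at 76, 32.6 and 16.6 in La-Cer mice. Ttn, the giant spring of the sarcomere, stood at 15, 6.96 and 23.4 FPKM in controls, at 2.99, 6.47 and 1.89 in AD mice and at 6.81, 3.99 and 0.64 in La-Cer mice. Tpm2, β-tropomyosin, which smooth muscle also makes, stood at 522, 561 and 1757 FPKM in controls, at 1218, 1434 and 333 in AD mice and at 602, 493 and 199.9 in La-Cer mice. Control replicate 3 was the highest library for Ttn and Tpm2, while AD replicate 2 was the highest for Actn2.

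Calcium is released in skeletal muscle through Ryr1, which stood at 29.7, 15.6 and 50.5 FPKM in controls, at 7.37, 15.9 and 3.03 in AD mice and at 10.02, 7.45 and 1.43 in La-Cer mice. It is pumped back by the fast pump Atp2a1, which stood at 1004, 785 and 2456 FPKM in controls, at 987, 1419 and 104 in AD mice and at 599, 376 and 95.2 in La-Cer mice, and stored by Casq1, which stood at 117, 128 and 407 FPKM in controls, at 206, 179 and 35.1 in AD mice and at 103, 89.6 and 18.3 in La-Cer mice. All 3 La-Cer values of Ryr1 and Atp2a1 lay below all 3 control values on the TMM-scaled level. Pvalb, a soluble calcium buffer of the fastest fibres, stood at 526, 769 and 2577 FPKM in controls, at 1369, 760.1 and 511 in AD mice and at 439, 787 and 56.6 in La-Cer mice. Of the energy genes, Ckm, the muscle creatine kinase, stood at 790.5, 796 and 2726 FPKM in controls, at 2641, 1427 and 371 in AD mice and at 752, 718 and 158 in La-Cer mice. Mb, the oxygen store myoglobin, stood at 136, 79.9 and 238 FPKM in controls, at 157, 444 and 133 in AD mice and at 418, 68.8 and 63.8 in La-Cer mice. Mb was highest in AD replicate 2 and La-Cer replicate 1, and Ckm was highest in control replicate 3 and AD replicate 1. By library, control replicate 3 was the highest for 5 of the 12 fast genes and AD replicate 1 for 4, and La-Cer replicate 3 was the lowest for 11.

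Slow and cardiac isoforms were scarce in skin. Of the 9 cardiac genes, 7 stayed under 5 FPKM in every skin library, the highest value among them being 2.15 (Tnnt2). Among those 7 were Myh6, the α heavy chain of the heart (at most 0.11 FPKM), and Myl7 (1.11). Nppa, the atrial natriuretic peptide, reached 0.46 and Ryr2, the calcium channel of the heart, 0.04. The rest were Myl4, the atrial essential light chain (1.95), and Tnni3 (1.85) and Tnnt2, the cardiac inhibitory and tropomyosin-binding troponins. Actc1, which is also made in skeletal muscle under development and repair, stood at 2.42, 1.03 and 8.01 FPKM in controls, at 7.47, 2.76 and 0.08 in AD mice and at 0.83, 3.31 and 0.14 in La-Cer mice. Sln, sarcolipin, a small inhibitor of the calcium pump that is made in the atria and in some skeletal fibres, stood at 15.4, 7.99 and 30.0 FPKM in controls, at 52.6, 183 and 27.3 in AD mice and at 31.6, 5.68 and 5.29 in La-Cer mice. AD replicate 2 was highest for Sln, and its groups overlapped. Of the slow and shared genes, Atp2a2, the slow and cardiac pump that is also made outside muscle, stood at 56.6, 41.9 and 23.1 FPKM in controls, at 17.8, 28 and 17.9 in AD mice and at 35.9, 29.8 and 43.5 in La-Cer mice. Pln, phospholamban, its inhibitor, did not exceed 0.32 FPKM in skin. Tnni1, the slow isoform that was higher in skin than in lung, stood at 3.14, 2.68 and 0.19 FPKM in controls, at 2.83, 2.48 and 3.33 in AD mice and at 0.87, 0.32 and 4.8 in La-Cer mice, against at most 0.21 FPKM in lung. Control replicate 3, the library richest in fast muscle, was the lowest for Tnni1. Among the muscle genes followed here, the nearest to Tnni1 is the cardiac Tnnt2, 25364 bases away on chromosome 1.

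Against control skin, AD skin had more transcript of 3 genes that slow fibres share with the heart, while fast genes did not pass the test. These 3 genes alone do not tell slow fibres from heart, and the slow skeletal troponins Tnnt1 and Tnni1 were not called. Myl2, the regulatory light chain of slow fibres and ventricles, stood at 0.85, 0.51 and 1.08 FPKM in controls, at 5.45, 11 and 9.97 in AD mice and at 0, 0.11 and 0 in La-Cer mice. Casq2, the slow and cardiac calsequestrin, stood at 2.76, 2.05 and 2.93 FPKM in controls, at 9.77, 13.6 and 10.3 in AD mice and at 2.82, 1.36 and 2.02 in La-Cer mice. Myh7, the slow and β-cardiac heavy chain, was near its floor, with 2, 0 and 2 counts in controls, 24, 20 and 24 in AD mice and 0, 3 and 2 in La-Cer mice. For all 3 genes each AD library lay above every control and every La-Cer library. The log2 change from control to AD was 3.65 ± 0.69 (SE, adjusted p = 0.0413) for Myl2, 2.35 ± 0.39 (SE, adjusted p = 0.0413) for Casq2 and 4.33 ± 0.98 (SE, adjusted p = 0.0417) for Myh7. These were the 3 calls among the 32 genes tested, all higher; 6.86% of the 16956 genes were called, 3.42% higher and 3.44% lower. The 3 calls ended without any one of control replicates 1 and 2 and AD replicates 1, 2 and 3, when 0 of the members were called, and 2 were called without control replicate 3; the count over all genes then ran from 0 to 535. The counts of Myh7 may include reads of its overlapping antisense RNA Mhrt, since no source used here says whether the counting used strand.

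Of the 7 slow and shared genes tested, 6 had positive estimates, and only the 3 named above passed. The estimate of Atp2a2, the most abundant of the list in skin, was negative (-0.66). Tnnc1, the slow and cardiac calcium-binding troponin, stood at 0.15, 0.19 and 0.52 FPKM in controls, at 2.62, 1.2 and 2.89 in AD mice and at 1.21, 0.16 and 0.43 in La-Cer mice, a change of 3.11 ± 0.89 (SE, adjusted p = 0.0591). Tnnt1, the slow tropomyosin-binding troponin, stood at 3.38, 3.35 and 13 FPKM in controls, at 8.26, 30.2 and 6.86 in AD mice and at 1.25, 2.38 and 0.25 in La-Cer mice, a change of 1.38 ± 0.86 (SE, adjusted p = 0.313), and its AD and control values overlapped. Myl3 was not tested in skin; its counts were 0, 3 and 2 in control, 12, 5 and 63 in AD mice and 0, 0 and 0 in La-Cer, with AD replicate 3 the highest. Over the 7 slow and shared genes tested the median log2 change was 2.35, over the 12 fast genes 0.31, over the 5 cardiac genes tested 0.42 and over all genes -0.05. On TMM-scaled CPM, groups did not overlap for 7 members that were higher in AD and for 1 that was lower (Tnnt2), against 16.3% and 18.2% of all genes. Fast genes lay on both sides of 0, from -1.30 (Myh4) to 1.58 (Tnni2), and the estimate for Acta1 was 0.30 ± 0.84 SE, adjusted p = 0.837. The lowest estimates were those of Ttn, Ryr1, Myh4, Actn3 and Neb (-1.78, -1.66, -1.30, -1.19 and -1.09), and the length index was negative in all AD libraries. Myh7, Myh2 and Myh1, which are long too, stood at 4.33, 0.52 and 0.10. The part of transcript length in these estimates was not tested. With the length trend removed no member was called, at an adjusted p of 0.0688 for Myl2, Casq2 and Myh7, while their estimates were 3.32, 2.22 and 4.81.

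**Figure D3:**
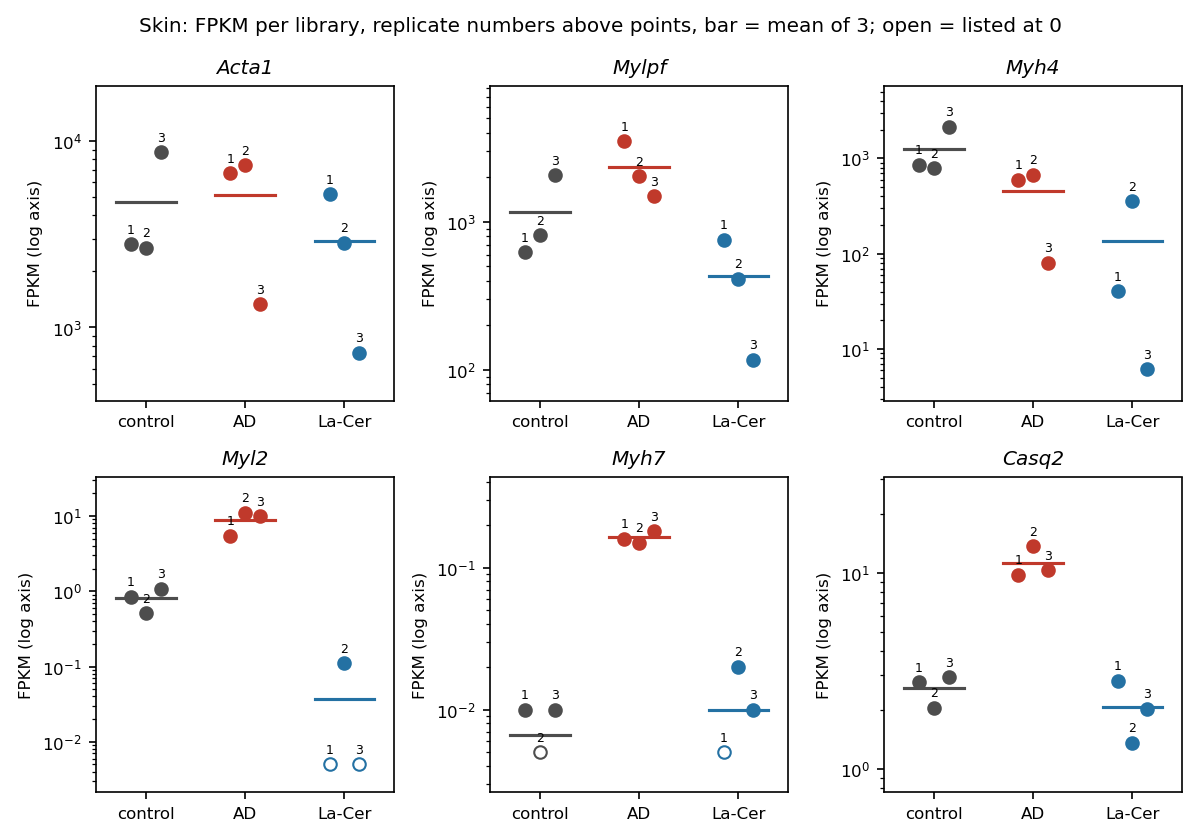
FPKM per skin library on a log axis for Acta1, Mylpf, Myh4, Myl2, Myh7 and Casq2, with the replicate number above each point, a bar at the mean of 3 and an open point for a value listed at 0. Acta1 overlaps between groups, and the AD values of Myl2, Myh7 and Casq2 lie above all others.

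La-Cer skin had lower estimates than AD skin for 28 of the 32 genes tested, and none of them passed the test. Called were 0 of 32 members and 0% of all genes (0% higher, 0% lower); at an unadjusted p under 0.05 there were 12 members and 3198 genes, and DESeq2 called 8 members and 892 genes. The median log2 change was -1.48 over the 32, -1.77 over the fast genes and -2.63 over the slow and shared genes, beside 0.02 over all genes. For 9 members all La-Cer libraries lay below all AD libraries and for 0 above, against 9.48% and 13% of all genes; they were Mylpf, Tnni2, Tnnc2, Myh7, Myl2, Tnnt1, Tnnc1, Casq2 and Myl4. The largest estimate was that of Myl2, -7.89 ± 0.91 (SE, adjusted p = 0.0585), which was listed at 0 in La-Cer replicates 1 and 3, so that its size depends on the prior count. Estimates of -4.00 ± 0.95 for Myh7, -3.80 ± 0.95 for Tnnt1, -2.78 ± 0.96 for Sln, -2.63 ± 0.40 for Casq2 and -2.61 ± 0.75 for Mylpf followed, with adjusted p from 0.141 to 0.187. Myh1, Tnnt2, Tnni3 and Atp2a2 had positive estimates (0.45, 0.77, 0.42 and 0.58). The comparison shares its AD libraries with the one above, so for Myl2, Myh7 and Casq2 the values are those already given, side by side.

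Against control, La-Cer skin had negative estimates for 25 of 32 genes, with a median of -1.07 beside -0.05 over all genes. None was called, as for all genes (0%, with 0% higher and 0% lower); 7 members and 968 genes had an unadjusted p under 0.05, and DESeq2 called 1 member and 60 genes. For 6 members, Myh4, Actn3, Atp2a1, Ryr1, Myl2 and Tnnt1, every La-Cer library lay below every control library (7.05% of all genes), and for 0 above (6.48%). Estimates were -4.24 ± 0.86 for Myl2, -3.35 ± 1.28 for Myh4 and -2.92 ± 1.10 for Actn3, each with an adjusted p of 0.837. Myh1, the heavy chain that dominated in La-Cer replicates 1 and 3, had an estimate of 0.55 ± 0.97.

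Other muscle genes of skin followed a similar order of libraries. The 30 genes of the sarcomere lattice summed to 1271 to 4024 FPKM in controls, 1233 to 4481 in AD mice and 362 to 1431 in La-Cer, and the ranges overlapped. The top genes were Des, desmin, at 539, 605 and 2330.1 CPM in controls, 3179.8, 2319.8 and 387 in AD mice and 566, 537 and 191 in La-Cer mice (CPM, counts scaled by the TMM library size), and Tcap, telethonin of the Z-disc, at 343, 358 and 1106 CPM in controls, 1530.4, 1223 and 362 in AD mice and 289, 307 and 119 in La-Cer mice. In AD against control 3 of the 29 lattice genes tested were called higher and 0 lower: Myoz2, a Z-disc protein of slow fibres and heart (3.06 ± 0.74 SE, adjusted p = 0.0453), Csrp3, the muscle LIM protein (3.29 ± 0.75 SE, adjusted p = 0.0423), and Ankrd2, a stretch-responsive protein of slow fibres (4.05 ± 0.79 SE, adjusted p = 0.0413); these names were chosen after their values were seen. Of 17 genes of excitation-contraction coupling tested, led by Trdn, triadin, and Srl, sarcalumenin, 0 were called, and of 13 muscle energy genes, led by Eno3, β-enolase, and Pygm, muscle glycogen phosphorylase, 0 were called. In La-Cer against AD the estimates were negative for 28 of 29 lattice genes, for 17 of 17 coupling genes and for 13 of 13 energy genes, and 0 were called. Regulators of the muscle lineage were present: Myod1 stood at 5.04, 5.98 and 21.8 CPM in controls, 5.26, 6 and 2.02 in AD mice and 8.69, 2.16 and 0.808 in La-Cer mice, Myog at 1.82, 1.85 and 6.01 CPM in controls, 16.6, 6.82 and 3.32 in AD mice and 4.89, 2.64 and 1.35 in La-Cer mice and Pax7, the marker of satellite cells, at most at 0.612 CPM; Mef2d and Mef2a, which many cells make, led the list. Of the 11 regulators tested, 0 were called in any of the 3 skin comparisons. The 17 heart regulators and channels summed to 6.85 to 18.3 FPKM in skin, and 9 of them passed the filter. Nkx2-5 had 0 counts in all 9 skin libraries, Myocd reached at most 0.445 CPM and Nppb at most 2.96 CPM. The leading genes of that list in skin were Corin and Sbk2, and its only called gene in AD against control was Ankrd1, a stress-responsive protein of heart and skeletal muscle (5.25 ± 1.0 SE, adjusted p = 0.0413), chosen after its value was seen.

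Other tissues in the skin samples varied beside the muscle. The summed hair follicle list, led by Tchh and Krt71, ran from 98.4 to 12691 FPKM, with 12691, 5304 and 201 in controls, 2438, 98.4 and 2998 in AD mice and 988, 1437 and 12092 in La-Cer, and none of its 13 genes was called. Epidermal genes, led by Krt5 and Krt14, summed to 4280.1 to 14259 in controls, 6372 to 12347 in AD mice and 10382 to 20629 in La-Cer mice. Adipocyte genes, led by Car3 and Fabp4, ran from 831 to 3009.7 FPKM, and Car3 is also made in slow muscle. Of the 5 genes on the brown fat list, only 3 passed the filter in skin. Called higher in AD were 2, Elovl3 (3.66 ± 0.76 SE, adjusted p = 0.0413) and Cidea (3.09 ± 0.72 SE, adjusted p = 0.043). The third had an estimate of -0.08. The list summed to 45.8 to 59.9 FPKM in control and 278 to 696 in AD. Whether Elovl3 and Cidea stood for brown fat in skin was not tested. Smooth muscle genes, led by Synpo2 and Smtn, ran from 66.6 to 176 FPKM with 0 of 10 called, alveolar genes (Hopx, Abca3) from 74.5 to 157, airway genes (Cyp2f2, Scgb1a1) from 14.3 to 115 and endothelial genes (Pecam1, Cdh5) from 4.06 to 18.8. The nuclear RNAs Neat1 and Xist led a list that summed to 168 to 177 in control and 53.9 to 107 in AD. Also called in AD against control, all lower and named after their values were seen, were Lep of the 10 adipocyte genes (-2.03 ± 0.51 SE, adjusted p = 0.0457), Abca3 of 7 alveolar genes (-2.06 ± 0.38 SE, adjusted p = 0.0413), and Malat1 and Xist of 4 nuclear RNAs (-2.32 ± 0.49 SE, adjusted p = 0.0413, and -2.22 ± 0.48 SE, adjusted p = 0.0417); of the epidermal, airway and endothelial genes 0 were called, and La-Cer skin had 0 calls in these lists. The part of these tissues in the values of the muscle genes was not tested.

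In lung, the muscle was heart muscle of atrial type. Whether it came from the atria or from the pulmonary veins was not tested. Myl7, the member with the highest level in lung, stood at 1391, 422 and 632 FPKM in controls, at 12, 184 and 579 in AD mice and at 1142, 549.8 and 1045 in La-Cer mice. Its partner Myl4 stood at 165, 60.3 and 101 FPKM in controls, at 2.27, 22 and 56.4 in AD mice and at 160.2, 76.8 and 139 in La-Cer mice. AD replicate 1 was far below every other library for both, and AD replicate 2 was the next lowest. The ventricular light chains were low by comparison. Myl2 stood at 0.61, 8.68 and 0.19 FPKM in controls, at 0.09, 0.03 and 0.06 in AD mice and at 0.27, 0 and 0.05 in La-Cer mice. Myl3 stood at 13.1, 11.1 and 7.54 FPKM in controls, at 0.34, 0.62 and 2.7 in AD mice and at 19.2, 4.48 and 20.02 in La-Cer mice. Control replicate 2 was the single lung library with Myl2 above 1 FPKM, and it held 296 counts of it. Of the regulatory light chains, Myl7 held 86.6 to 99.7% of the length-scaled sum in the 9 lung libraries. Nppa, the hormone made by atrial cells, stood at 254, 27.4 and 90.7 FPKM in controls, at 0.68, 55.6 and 841 in AD mice and at 150.3, 52.8 and 129.97 in La-Cer mice, with AD replicate 3 the highest and AD replicate 1 the lowest of all 9. Nppb, the related peptide, was also highest in AD replicate 3 (16.9, 0.842 and 1.99 CPM in controls, 0.0597, 1.26 and 23.7 in AD mice and 3.93, 0.562 and 4.45 in La-Cer mice).

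The heavy chains were cardiac as well. Myh6 stood at 21.9, 107 and 178 FPKM in controls, at 8.3, 61.9 and 99.9 in AD mice and at 119.96, 84.3 and 138.1 in La-Cer mice. Myh7 stood at 3.67, 10.2 and 13.8 FPKM in controls, at 6.93, 8.65 and 7.9 in AD mice and at 9.88, 10.9 and 12 in La-Cer mice. Myh6 was lowest in AD replicate 1 and next lowest in control replicate 1, while Myh7 was lowest in control replicate 1, with AD replicate 1 the next lowest. Myh7 made up 45% of the heavy chain sum in AD replicate 1 and 7.18 to 13.9% in the other 8 libraries. The genes of Myh6 and Myh7 lie 3756 bases apart on chromosome 14, and 20.2% and 15.6% of their 50-base words occur in another gene. The ratio of Myh6 to the short Myl7 was 0.0158 in control replicate 1 and 0.105 to 0.692 in the other libraries, beside the lowest length index of lung (-1.17) in control replicate 1; the part of transcript length was not tested.

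Thin filament genes gave the same picture. Actc1 stood at 171, 132 and 175 FPKM in controls, at 12.8, 100.3 and 227 in AD mice and at 267, 155 and 257 in La-Cer mice. Tnnt2 stood at 34.6, 31.6 and 41.9 FPKM in controls, at 3.43, 29.6 and 43.1 in AD mice and at 52.2, 26.1 and 51.7 in La-Cer mice. Tnni3 stood at 84.3, 44.2 and 59.8 FPKM in controls, at 4.08, 39.2 and 64.2 in AD mice and at 92.2, 40.1 and 78.3 in La-Cer mice. Tnnc1, which completes the cardiac troponin, stood at 177, 74 and 91.5 FPKM in controls, at 2.75, 35.3 and 89.5 in AD mice and at 128, 69.7 and 118 in La-Cer mice. For each of these 4 genes AD replicate 1 was the lowest library, and all 3 groups overlapped. Levels of Tnnt2, Myl4 and Tnni1 per length are understated, since their exonic sizes of 7752, 4637 and 3600 bases are far above their longest coding transcripts of 1200, 943 and 1150 bases. Of the calcium genes, Ryr2 stood at 0.42, 1.43 and 2.74 FPKM in controls, at 0.27, 1.57 and 2.16 in AD mice and at 1.69, 1.1 and 1.87 in La-Cer mice. Sln stood at 121, 41 and 60.2 FPKM in controls, at 2.75, 18.6 and 40.7 in AD mice and at 134, 56.3 and 123 in La-Cer mice. Sln and its relative Pln both restrain the calcium pump. Pln stood at 11.8, 8.68 and 9.69 FPKM in controls, at 1.65, 11.9 and 11.1 in AD mice and at 18.8, 5.6 and 16.9 in La-Cer mice. Casq2 stood at 16.4, 8.13 and 10.4 FPKM in controls, at 0.21, 6.8 and 10.9 in AD mice and at 19.4, 9.81 and 17.8 in La-Cer mice. Atp2a2 stood at 68.9, 114 and 157 FPKM in controls, at 52.1, 106 and 141 in AD mice and at 147, 105 and 147 in La-Cer mice. AD replicate 1 was again the lowest for Ryr2, Sln, Pln and Casq2, and for Atp2a2 too, which is more widely made. AD replicate 1 was the lowest lung library for all 9 cardiac genes and for all 5 genes of both muscles. The 9 cardiac genes summed to 46.6 FPKM in that library and to 513 to 2243 FPKM in the other 8.

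**Figure D4:**
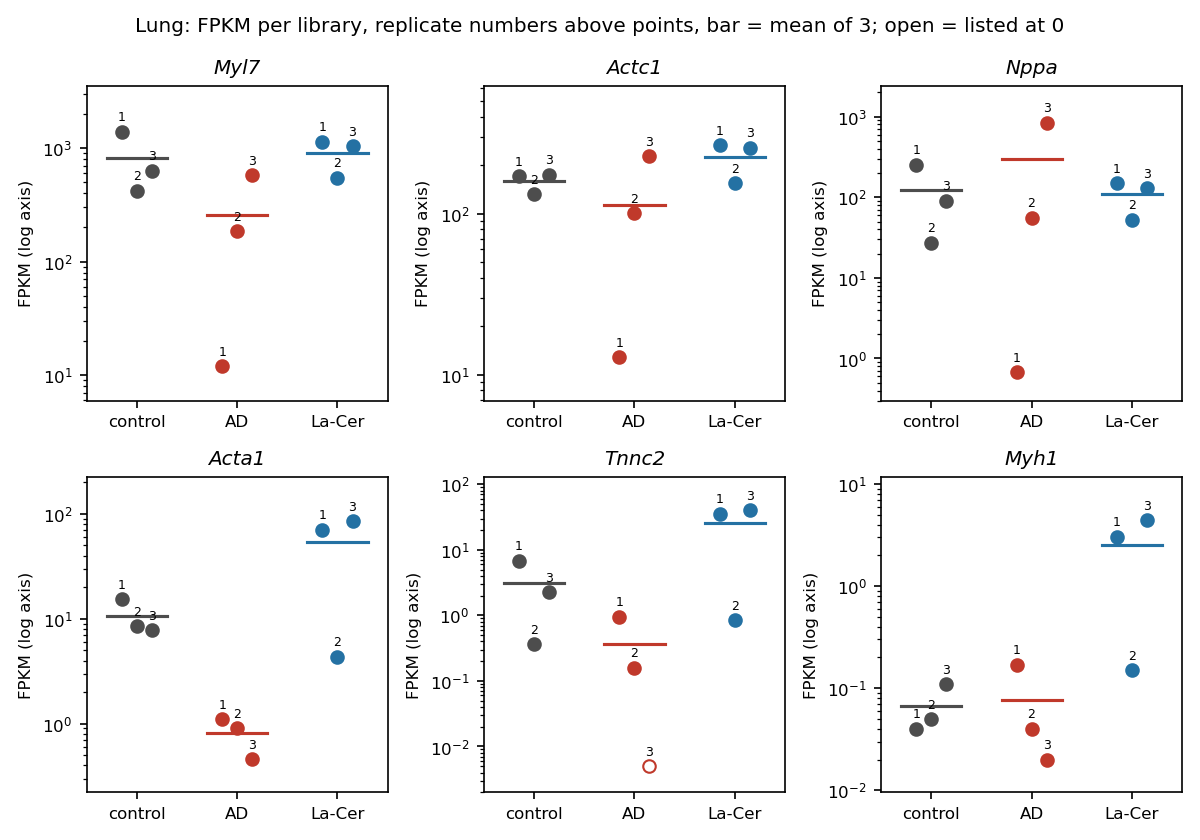
FPKM per lung library on a log axis for the cardiac genes Myl7, Actc1 and Nppa and for Acta1, Tnnc2 and Myh1 of skeletal muscle, with the replicate number above each point, a bar at the mean of 3 and an open point for a value listed at 0. AD replicate 1 is lowest for the cardiac genes, and La-Cer replicates 1 and 3 are highest for the skeletal genes.

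Skeletal transcripts in lung were few, and most were in La-Cer replicates 1 and 3. Acta1 stood at 15.3, 8.52 and 7.8 FPKM in controls, at 1.1, 0.9 and 0.46 in AD mice and at 70.6, 4.34 and 85.4 in La-Cer mice. Tnnc2 stood at 6.81, 0.36 and 2.26 FPKM in controls, at 0.95, 0.16 and 0 in AD mice and at 35.4, 0.84 and 40.5 in La-Cer mice. Mylpf stood at 6.4, 1.35 and 2.1 FPKM in controls, at 1.76, 2.78 and 1.82 in AD mice and at 23.1, 2 and 25.8 in La-Cer mice. La-Cer replicates 1 and 3 were the 2 highest libraries for all 3 genes, and La-Cer replicate 2 lay near the controls or below them. Atp2a1 stood at 2.14, 1.58 and 3.31 FPKM in controls, at 1.04, 0.52 and 1.64 in AD mice and at 9.75, 2.96 and 12.5 in La-Cer mice. Tnni2 stood at 4.72, 1.18 and 1.57 FPKM in controls, at 0.62, 0.8 and 0.82 in AD mice and at 13.3, 1.52 and 12.1 in La-Cer mice. Tnnt3 stood at 4.7, 3.5 and 3.46 FPKM in controls, at 1.37, 1.43 and 3.78 in AD mice and at 17.5, 2.48 and 16.9 in La-Cer mice. These fast genes of the calcium pump and of troponin were also highest in La-Cer replicates 1 and 3. Myh1 stood at 0.04, 0.05 and 0.11 FPKM in controls, at 0.17, 0.04 and 0.02 in AD mice and at 3.03, 0.15 and 4.41 in La-Cer mice. Actn3 stood at 0.5, 0.2 and 0.5 FPKM in controls, at 0.24, 0.35 and 0.2 in AD mice and at 3.44, 0.34 and 3.7 in La-Cer mice, again with La-Cer replicates 1 and 3 the highest. Myl1, Pvalb and Myh4 were instead highest in control replicate 1. Myl1 stood at 25.6, 3.97 and 6.65 FPKM in controls, at 0.11, 1.7 and 5.88 in AD mice and at 17.1, 5.83 and 14.9 in La-Cer mice. Myh4 and Myh2 did not exceed 0.58 and 0.42 FPKM in lung, Pvalb 2.8, Casq1 3.98, Neb 0.35 and Ryr1 0.35. Tnnt1, of slow fibres, stood at 3.82, 1.3 and 2.05 FPKM in controls, at 0.69, 1.43 and 1.62 in AD mice and at 2.68, 2.46 and 3.04 in La-Cer mice. The fast genes and the genes of any skeletal fibre together took 0.00437 to 0.0126% of the counts in control lung, 0.00187 to 0.00359% in AD mice and 0.00474 to 0.0379% in La-Cer, against 0.33 to 2.172% in La-Cer skin. Acta1 made up 20.9, 2.73 and 24.9% of the striated actins in La-Cer lung, 8.2, 6.08 and 4.27% in control and 7.94, 0.89 and 0.201% in AD. Genes of both muscles were also present. Mb stood at 142, 59.4 and 82 FPKM in controls, at 0.9, 25.1 and 95 in AD mice and at 141, 53 and 119.8 in La-Cer mice. Ckm stood at 47.7, 25 and 41.8 FPKM in controls, at 1.57, 11 and 23.3 in AD mice and at 72.2, 29.7 and 74.8 in La-Cer mice. Tpm2 stood at 45.7, 51.2 and 47.3 FPKM in controls, at 17.5, 29.2 and 53.4 in AD mice and at 75.4, 45.8 and 76 in La-Cer mice. Actn2 and Ttn ranged over 1.36 to 21.5 FPKM and 0.08 to 1.25 FPKM. All 5 were lowest in AD replicate 1.

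Between AD and control lung no member passed the test: 0 of 36 were called, against 0.0463% of the 17272 genes (0.00579% higher, 0.0405% lower), with 10 members and 3607 genes at an unadjusted p under 0.05, and DESeq2 called 5 members and 1217 genes. Estimates were negative for 32 of the 36, with a median of -0.96 beside 0.01 over all genes, -0.94 over the cardiac genes and -1.56 over the fast genes. Among the lowest were Pvalb (-3.94 ± 1.32 SE, adjusted p = 0.157), Acta1 (-3.81 ± 0.95 SE, adjusted p = 0.106) and Myl3 (-3.24 ± 0.78 SE, adjusted p = 0.0985). For Myl7 the estimate was -1.83 ± 1.0 (SE, adjusted p = 0.32). It was -1.27 without AD replicate 1, the library poor in heart muscle, -3.28 without AD replicate 3 and -1.08 without control replicate 1, and did not pass in any of these. Groups did not overlap for 7 members lower in AD and 1 higher (Neb), against 12% and 12.3% of all genes. Nppa, highest in AD replicate 3, had an estimate of 1.09 ± 1.53 (SE, adjusted p = 0.718). Without lung control replicate 1, 992 genes and 1 member were called in this comparison.

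Between La-Cer and AD lung, Acta1 and the fast calcium pump Atp2a1 were called higher in La-Cer, by 6.07 ± 1.02 (SE, adjusted p = 0.0369) and 3.02 ± 0.60 (SE, adjusted p = 0.0435). They were the 2 calls among 36 members; 1.91% of all genes were called, 0.845% higher and 1.07% lower. All 3 La-Cer values lay above all 3 AD values for both genes, though La-Cer replicate 2 held 4.34 FPKM of Acta1 against 70.6 and 85.4 in the others. Those others, La-Cer replicates 1 and 3, are the most alike pair of libraries described above, and whether they come from separate mice is not shown. The test counts them as independent. Leaving out a single library ended both calls except without La-Cer replicate 2, when 1 member was called: for Acta1 the adjusted p was 0.0773 to 0.206 without lung AD 1, lung AD 2, lung AD 3, lung La-Cer 1 and lung La-Cer 3, and for Atp2a1 0.0752 to 0.206 without lung AD 1, lung AD 2, lung AD 3, lung La-Cer 1, lung La-Cer 2 and lung La-Cer 3. Over all genes the count was 9, 0 and 16 without AD replicates 1, 2 and 3, and 0, 1 and 0 without La-Cer replicates 1, 2 and 3. Estimates were positive for 35 of 36 members (Nppa was negative, -1.36), with a median of 1.66 beside -0.03 over all genes. The median was 3.38 over the 12 fast genes, 1.84 over the 3 genes of any skeletal fibre and 1.07 over the 9 cardiac genes. Groups did not overlap for 15 members, all higher in La-Cer, against 22.5% of all genes higher and 22.1% lower. Estimates near the threshold were those of Myl3 (3.63 ± 0.79 SE, adjusted p = 0.0513), Myh1 (5.09 ± 1.15 SE, adjusted p = 0.0552), Tnni2 (3.64 ± 0.84 SE, adjusted p = 0.0589) and Tnnc2 (6.10 ± 1.62 SE, adjusted p = 0.0727).

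Against control, La-Cer lung had 0 called members, while 0.0347% of all genes were called, 0.0347% higher and 0% lower. At an unadjusted p under 0.05 there were 9 members and 548 genes, and DESeq2 called 2 members and 20 genes. With the replicate number as a block, 0 genes and 0 members were called. The fast genes had a median estimate of 1.77 and the genes of any skeletal fibre one of 2.26, beside 0.12 for the cardiac genes and -0.05 over all genes. Only for Myh1 did the groups not overlap (5.13 ± 1.16 SE, adjusted p = 0.999); this is 1 member higher and 0 lower, against 5.64% and 5.69% of all genes. Estimates for heart genes were 0.06 ± 0.97 for Myl7, 0.45 ± 0.72 for Actc1 and 0.15 ± 0.80 for Myh6; the sign for Myl7 turned without lung control replicate 2 or 3 or La-Cer replicate 1 or 3. Acta1, Mylpf, Tnnc2, Tnni2, Tnnt3, Actn3, Atp2a1 and Casq1 lay above all control and AD libraries in La-Cer replicates 1 and 3 and not in La-Cer replicate 2.

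Other muscle genes of lung are as follows. The lattice list, led by Des (182, 245 and 308 CPM in controls, 103, 141 and 213 in AD mice and 309, 214 and 315 in La-Cer mice) and Nebl, nebulette (192, 168 and 136 CPM in controls, 277, 244 and 278 in AD mice and 168, 202 and 173 in La-Cer mice), had 1 of 26 tested genes called higher in La-Cer than in AD, Mybpc2, the fast myosin-binding protein C (2.14 ± 0.42 SE, adjusted p = 0.0424), named after its value was seen. In the other lung comparisons 0 of the 26 were called. Nebl was higher in every AD library than in every other lung library, AD replicate 1 included, so it did not follow the cardiac genes. Which cells of the lung made Nebl and Des was not tested. Coupling genes, led by Jph2, junctophilin of the heart, and Srl, had 0 of 11 called in each comparison, and energy genes, led by Fabp3, the heart fatty acid-binding protein, and Eno3, had 0 of 13 called. Fabp3 stood at 224, 94.5 and 113 CPM in controls, 14, 68.9 and 81 in AD mice and 175, 98.8 and 155 in La-Cer mice, again lowest in AD replicate 1. The heart list was led by Gja5, a connexin of atria and arteries (80.6, 141 and 104 CPM in controls, 43.2, 103 and 107 in AD mice and 143, 129.8 and 148 in La-Cer mice), and Ankrd1, with 0 of 16 called. Nkx2-5, a transcription factor of heart muscle, stood at 1.72, 1.18 and 2.48 CPM in controls, 0, 1.09 and 2.43 in AD mice and 3.93, 1.64 and 3.29 in La-Cer mice, so it was listed at 0 in AD replicate 1, and Myocd stood at 0.675, 1.12 and 1.51 CPM in controls, 0.717, 0.977 and 1.58 in AD mice and 1.86, 1.07 and 2.44 in La-Cer mice. Myod1 and Myog were at or near 0: their highest lung values were 0.318 and 0.319 CPM, in La-Cer replicates 3 and 1, and Pax7 did not exceed 0.0562 CPM. Mef2a and Mef2d led the list of regulators, of which 0 of 6 were called.

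Other tissues in the lung samples varied as well. Brown fat genes summed to 459, 204 and 8.13 FPKM in controls, 1.49, 224 and 4.53 in AD mice and 35.8, 4.99 and 28.3 in La-Cer, with Ucp1 at 625, 221 and 1.45 CPM in controls, 0.418, 237 and 0.169 in AD mice and 29.3, 0.102 and 21.6 in La-Cer mice. Adipocyte genes summed to 1051, 329.7 and 226, 64.9, 262 and 62.5 and 362, 154 and 353 FPKM in the same order, led by Fabp4 and Lpl. Smooth muscle genes, led by Acta2 and Mylk, summed to 169, 269 and 592 FPKM in AD, with AD replicate 1 low, and to 408 to 586 in control and 449 to 592 in La-Cer. Epidermal genes (Krt5, Krt10) summed to 3.6 to 25.6 FPKM and hair follicle genes (Tchh, Padi3) to 1.51 to 2.97; in La-Cer the hair follicle sum was 2.27, 2.97 and 2.23. Airway genes, led by Scgb1a1 and Cyp2f2, summed to 79661 to 115288 in controls, 43291 to 139057 in AD mice and 105207 to 157991 in La-Cer, and alveolar genes, led by Sftpc and Sftpa1, to 17120.0 to 38147. Endothelial genes (Pecam1, Cdh5) ranged over 316 to 762 FPKM and nuclear RNAs (Neat1, Malat1) summed to 218 to 414 in AD mice and 84.7 to 151 in La-Cer. Of these lists 0 genes were called in any lung comparison, and their part in the muscle values was not tested.

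The change from control to AD differed between the tissues for 9 members by the interaction test, all with a higher change in skin, against 14.7% of the 19129 genes (9.44% higher, 5.3% lower). They were Tnni2, Acta1, Myh7, Myl2, Myl3, Tnnc1, Casq2, Myl4 and Sln, of which 5 belong to the slow and shared list. The median over the 38 was 2.10, beside 0.03 over all genes. For Myh7 the change was 4.33 in skin and -0.31 in lung, a difference of 4.71 ± 0.74 (SE, adjusted p = 0.00608), and for Casq2 it was 2.35 and -1.13, a difference of 3.57 ± 1.03 (SE, adjusted p = 0.0308). The number of calls was 3 without skin control replicate 1, skin control replicate 2 or lung control replicate 1, and 4 without lung AD replicate 2, against 6 to 10 without any other library.

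The change from AD to La-Cer differed between the tissues for 8 members, all with a lower change in skin, against 1.62% of all genes (0.366% higher, 1.25% lower). They were the fast genes Mylpf, Tnni2 and Tnnc2, the slow and shared genes Myh7, Myl2, Myl3 and Tnnt1, and Acta1. The median difference was -3.84 over the 38, -4.99 over the fast genes and -2.63 over the cardiac genes, beside -0.01 over all genes. For Acta1 the change was -0.99 in skin and 6.07 in lung, a difference of -7.14 ± 1.39 (SE, adjusted p = 0.0323). For Tnnc2 it was -1.83 and 6.10, a difference of -8.01 ± 1.83 (SE, adjusted p = 0.044). The high lung values of Acta1 and Tnnc2 were those of La-Cer replicates 1 and 3, while AD lung held 63 and 15 counts of them in all. The part of the muscle carried by each piece of tissue in these differences was not tested. Over all genes 309 were called, and 6 to 862 when 1 library was left out. Of the members, 0 were left without lung AD replicate 2, 1 without lung La-Cer replicate 1 or 3 or skin La-Cer replicate 2 or 3, and 2 without lung AD replicate 1 or 3 or skin AD replicate 1, while 6 were called without lung La-Cer replicate 2 and 13 without skin La-Cer replicate 1. Over all settings the estimate ran from -7.94 to -6.65 for Acta1 and from -6.59 to -5.45 for Tnni2. Both interaction tests use the same AD libraries, so they are not independent of each other.

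**Figure D5:**
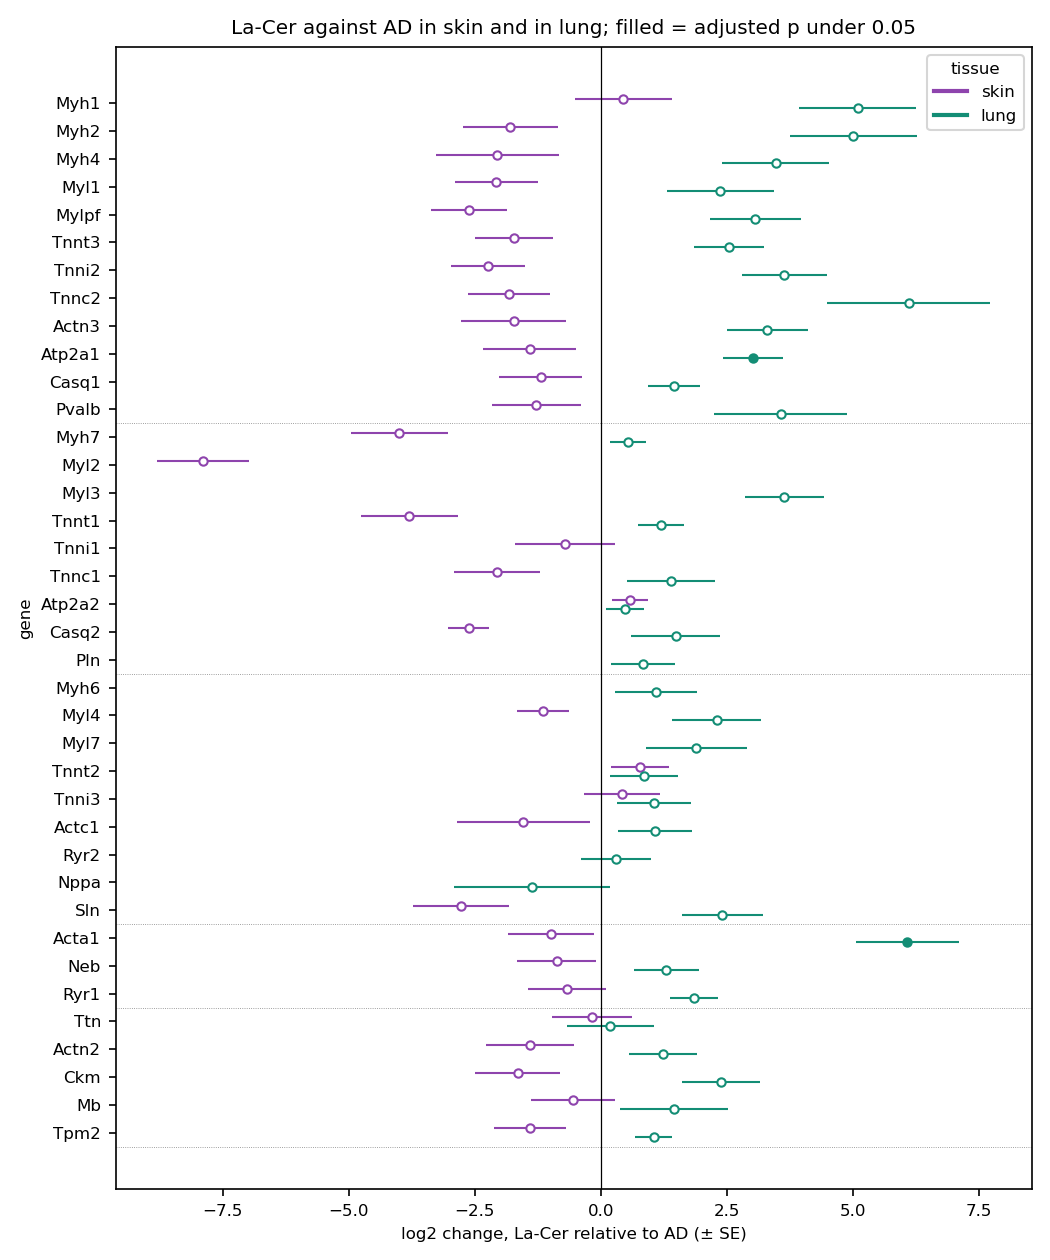
Log2 change from AD to La-Cer with its SE for each gene tested, in skin (purple) and in lung (green), with filled points for an adjusted p under 0.05. Most skin estimates lie left of 0 and most lung estimates right of 0, and only Acta1 and Atp2a1 in lung are filled.

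Several members lie near one another in the genome, by their coordinates in GRCm38, and other genes may lie between them. The fast heavy chains Myh2, Myh1 and Myh4 lie in a row on chromosome 11, from 67171027 to 67260446, with gaps of 2534 and 13453 bases, and all 3 were fast genes of skin. Tnni2 and Tnnt3, the fast troponin genes, lie 54425 bases apart on chromosome 7, whereas Tnnt1 of slow fibres and the cardiac Tnni3 lie 1922 bases apart on the same chromosome. By the test Tnni3 was lower in skin than in lung, while Tnnt1 was not called. Ryr2 and Actn2 lie 162480 bases apart on chromosome 13. Of the 38 genes, 25 overlap another gene, 8 of them a gene on the same strand and 23 a gene on the opposite strand. The share of 50-base words found in another gene was 22.9% for Myh2, 11.7% for Myl1 (through the pseudogene Mylf-ps), 3.31% for Atp2a2, 2.02% for Acta1 and 1.69% for Tnni3, and under 1% for the genes not named here or above.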

How the data were processed

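Per the labels' protocols, total RNA (Promega Eastep kit, 1.5 µg per sample) went into SMARTER mRNA libraries. Per the submitters' processing notes, bcl2fastq 2.17.1.14 and cutadapt 1.9.1 were used with GRCm38. Aligner, counter and strand setting: not given in the sources used here. The authors deposited raw counts per gene (whole numbers), FPKM and the exonic gene size in bases. FPKM equal the count scaled by exonic size and column total, and were used for levels only. The test was edgeR 4.0.16 (R 4.3.3) on those counts: TMM scaling, filterByExpr on the groups, a robust quasi-likelihood fit over the 9 libraries of a tissue, or over all 18 for comparisons between tissues, and Benjamini-Hochberg adjustment over all genes tested. Adjusted p-values given without a tool are from this test; it was tested on simulated data first. Changes of low genes depend on the prior count. Nonoverlap was read on TMM-scaled CPM. The tables' gene symbols gave the members, and isoform shares divide counts by exonic size. Words of 50 bases were compared with GENCODE vM21 transcripts. Promoters are from RefSeq (GRCm38.p6). The members and lists were chosen with earlier results of these data known. By rule, values in every library were given for the 3 members of each list with the highest mean FPKM in a tissue and for every called member, and the 2 genes with the highest mean CPM of each other list were named, with Myod1, Myog, Pax7, Nppb, Nkx2-5 and Myocd; values of further members, and other genes so marked, were added after their values were seen. Same-numbered libraries were checked for pairing: in lung control and La-Cer the deviations from the group means correlated at 0.31, 0.13 and 0.19, each over 0.1, so the numbers may pair these libraries, as a hint from the data; the other pairs of groups did not meet this. Tried as alternatives were DESeq2 1.42.0, RLE size factors, dropping the filter, only the 6 libraries compared, the replicate number or the library code as a replicate block, removal of a length trend (lowess span 0.3), shares of read counts, and leaving out each library. The p-values measure the spread between the 3 libraries of a group, pooled over all groups of the fit, those not compared included, with information shared between genes.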

Additional observations from a re-analysis of the deposited data

Results flagged for a closer look

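For 9 genes the change from control to AD differed between skin and lung in the interaction test of edgeR, with log2 differences, skin minus lung, of 9.357 for Myl2, 7.564 for Myl3, 4.799 for Tnnc1, 4.715 for Myh7, 4.59 for Sln, 4.198 for Acta1, 3.565 for Casq2, 3.561 for Tnni2 and 3.487 for Myl4. The change from control to AD itself was 3.65 in skin and not tested in lung for Myl2, 2.51 in skin and -2.01 in lung for Sln, 3.11 in skin and -1.59 in lung for Tnnc1 and 1.21 in skin and -2.18 in lung for Myl4. Adjusted p-values of the 9 ran from 0.00608 for Myh7 to 0.0454 for Tnni2. Among the lung controls Myl2 ran from 0.19 to 8.68 FPKM, so most of its lung control signal came from 1 library, control replicate 2. AD lung held 6 counts of Myl2 in all. Over all settings the difference for Myl2 ran from 6.52 to 9.91. 

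For 8 genes the change from AD to La-Cer differed between the tissues in the same kind of test, with log2 differences, skin minus lung, of -11.77 for Myl3, -8.754 for Myl2, -8.01 for Tnnc2, -7.144 for Acta1, -5.95 for Tnni2, -5.763 for Mylpf, -5.033 for Tnnt1 and -4.541 for Myh7. The change from AD to La-Cer was -2.61 in skin and 3.06 in lung for Mylpf, -2.24 in skin and 3.64 in lung for Tnni2 and -3.80 in skin and 1.19 in lung for Tnnt1. Adjusted p-values of the 8 ran from 0.0172 for Myh7 to 0.0449 for Myl2. Myl2 and Myl3 are near 0 in one of the tissues, so their differences depend on the prior count. Without 1 library at a time, Myh7, Myl2 and Myl3 kept the call of the AD comparison each time and the other 6 genes lost it in 3 to 9 of 12 cases; in the emollient comparison Myh7 lost it only without lung AD 2 and the other 7 genes in 6 to 10 of 12 cases.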

How the results depend on the processing

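Calls as reported were 1163 genes and 3 members in skin AD against control, 0 genes and 0 members in skin La-Cer against AD, 0 genes and 0 members in skin La-Cer against control, 8 genes and 0 members in lung AD against control, 330 genes and 2 members in lung La-Cer against AD, 6 genes and 0 members in lung La-Cer against control, 8184 genes and 33 members in control skin against lung, 2819 genes and 9 members in the AD interaction and 309 genes and 8 members in the emollient interaction. Without a filter on low counts, the calls became 1908 genes and 5 members in skin AD against control, 449 genes and 3 members in skin La-Cer against AD, 7 genes and 1 member in skin La-Cer against control, 134 genes in lung AD against control, 1 member in lung La-Cer against AD, 11 genes in lung La-Cer against control, 3 members in the AD interaction and 799 genes and 5 members in the emollient interaction. With the replicate block, the calls became 0 genes and 0 members in skin AD against control, 0 genes in lung AD against control, 12 genes and 1 member in lung La-Cer against AD, 0 genes in lung La-Cer against control and 42 genes and 2 members in the emollient interaction. With the length trend removed, the calls became 0 genes and 0 members in skin AD against control, 111 genes in lung AD against control, 5 members in lung La-Cer against AD and 1853 genes in the AD interaction. With DESeq2, the calls became 2878 genes and 6 members in skin AD against control, 892 genes and 8 members in skin La-Cer against AD, 60 genes and 1 member in skin La-Cer against control, 1217 genes and 5 members in lung AD against control, 2180 genes and 15 members in lung La-Cer against AD, 20 genes and 2 members in lung La-Cer against control and 2003 genes and 22 members in the emollient interaction. With only the 6 libraries compared, the calls became 590 genes in skin AD against control, 0 genes in lung AD against control, 4034 genes and 13 members in lung La-Cer against AD and 0 genes in lung La-Cer against control. With RLE size factors, the calls became 20 genes in lung AD against control. Leaving out 1 library at a time gave 0 to 535 genes in skin AD against control, 0 to 2 members in skin AD against control, 0 to 1 genes in skin La-Cer against AD, 0 to 992 genes in lung AD against control, 0 to 1 members in lung AD against control, 0 to 16 genes in lung La-Cer against AD, 0 to 1 members in lung La-Cer against AD, 0 to 21 genes in lung La-Cer against control, 1001 to 3213 genes in the AD interaction, 3 to 10 members in the AD interaction, 6 to 862 genes in the emollient interaction and 0 to 13 members in the emollient interaction. The sign for Acta1 in skin AD against control turned with the replicate block (-0.075), with the length trend removed (-0.18) and without skin control replicate 1, control replicate 2 or AD replicate 2 (-0.0079, -0.00068 and -0.071), and that for Myl7 in lung La-Cer against control without control replicate 2 or 3 or La-Cer replicate 1 or 3 (-0.27, -0.12, -0.18 and -0.064); their highest values without 1 library were 1.27 and 0.82. Of 997 alternative values for single genes in the comparisons reported, 815 kept direction and side of the threshold, 156 lost and 17 gained a call and 9 turned. The causes were not tested. Depth limits Myh7 and Myl3 in skin, which rest on few counts, and 3 libraries per group limit all tests.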
